A study of Drosophila melanogaster with 3 samples.

Results

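Mitochondria in animal cells fuse, divide, travel and are cleared when damaged, and 8 Drosophila melanogaster genes that encode the core of this machinery are described here by the CG14710-GFP peaks at their promoters. The genes are Opa1, Marf, fzo, Drp1, Fis1, Miro, Pink1 and park, 8 of the 13944 protein-coding genes that RefSeq annotates on the chromosome arms of the dm6 assembly. They were chosen by function together with the measured height of the Opa1 peak, which is among the highest of the experiment, so their peak values are given as a description and none of them is tested. The single group was embryos of both sexes, aged 0 to 14 hours, of a stable transgenic line in which the CG14710 protein ends in green fluorescent protein (GFP); all 3 biological replicates carry this same fusion. Its chromatin was pulled down with an anti-GFP antibody and sequenced (ChIP-seq), with CG14710 assayed as a transcription factor. No untagged, untreated or second-stage group was analysed here, so the comparisons are between genes and between replicates. Embryos were taken whole, so a higher peak cannot be told apart as more cells carrying the protein or more protein per cell.

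The inner and outer mitochondrial membranes fuse separately. Opa1 is the dynamin-like GTPase of inner membrane fusion, and the mitofusins Marf and fzo join outer membranes, Marf in most tissues and fzo in the male germ line, where it acts in developing spermatids. Drp1 is the dynamin-like GTPase that constricts and divides mitochondria, and Fis1 is an outer membrane protein of the fission pathway. Miro is the outer membrane GTPase that couples mitochondria to microtubule motors. Pink1 is a kinase that senses damaged mitochondria and activates park, the ubiquitin ligase parkin, and ubiquitinated mitochondria are then taken up by autophagy; in flies, loss of Pink1 or park damages flight muscle and spermatids.

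Sequences around the start sites of some of the genes, with a high, a low or no peak, are printed first, since matches described later refer to them. The Opa1 sequence is not printed, and not every summit given later falls within a printed sequence. They were read from the dm6 reference genome, 5′ to 3′ on the strand of the gene. Capitals mark matches on either strand to one of 10 sequences searched for. The longer ones are TATCGATA, known from the factor DREF, GGTCACACT, which is core promoter motif 1 and is known from M1BP, GGTATTTT, which is core promoter motif 6, and CAGGGCTG, known from ZIPIC. A shorter one is CGATA, known from the insulator protein BEAF-32 and contained in the DREF sequence. The GAGA factor is known for GAGAGAG. The pioneer factor Zelda is known for CAGGTAG. The E-box searched for was CACGTG. The TATA box was written TATAAA. The tenth, ACACTG, was added after seeing the data, as the sequence of 6 bases with the largest excess at the 100 strongest reproducible summits, and it shares 5 bases with the M1BP sequence. The Pink1 stretch before the start is chrX:6683698-6683797, plus strand, and the Pink1 site is chrX:6683820-6683849; the Marf stretch is chrX:6365849-6365948, plus strand. The Drp1 stretch is chr2L:2585431-2585530, minus strand, and the Drp1 site is chr2L:2585392-2585421. The park site is chr3L:21196730-21196759, the Miro site is chr3R:24037716-24037745 and the fzo stretch is chr3R:23204035-23204134, all on the minus strand. Each stretch is the 100 bases before the first start site and each site is 30 bases around a match.
Pink1 before the start: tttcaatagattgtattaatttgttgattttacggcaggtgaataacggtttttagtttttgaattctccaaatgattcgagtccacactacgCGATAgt
Pink1 site with the M1BP sequence: ccgtaagtgtGGTCACACTaacgccttgct
Marf before the start: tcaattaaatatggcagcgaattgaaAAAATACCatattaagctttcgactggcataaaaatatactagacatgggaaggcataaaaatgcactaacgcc
Drp1 before the start: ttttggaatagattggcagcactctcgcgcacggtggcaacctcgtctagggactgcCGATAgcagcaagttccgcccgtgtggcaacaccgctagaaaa
Drp1 site with ACACTG: atttgctgtgcaACACTGgcggtttgcaaa
park site with ACACTG: tggcaACACTGaagcatatACACTGcacta
Miro site with the ZIPIC sequence: gcctagtgtggCAGCCCTGgtagctgggtt
fzo before the start: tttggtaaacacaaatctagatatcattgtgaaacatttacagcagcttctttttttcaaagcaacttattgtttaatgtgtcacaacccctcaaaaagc

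Of the 8 genes, 6 had a summit of the authors' reproducible peak list within 500 bp of a transcription start site (TSS): Opa1, Pink1, Marf, Miro, Drp1 and park. This list, filtered by the authors on the irreproducible discovery rate (IDR), held 9194 peaks. The authors' pooled list held 30000, as did the list of every replicate. Percentiles of a replicate given below are positions within its 30000 peaks, and a site weaker than the lowest of them is not listed. The share of 75% has an exact 95% binomial (Clopper-Pearson) interval of 34.9% to 96.8%, which covers counting error only. Among all protein-coding genes the share was 42.6%. The genes were chosen with the Opa1 peak known, so nothing is read from the difference. In the pooled list the same 6 genes had a promoter summit, against 55.1% of all genes. The lists of replicates 1 and 2 held a promoter summit for 6 of the 8 genes each, against 55.4% and 55.3% of all genes, and that of replicate 3 for 7, against 55% of all genes. The additional gene in replicate 3 was Fis1, and fzo had no promoter summit in any list.

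**Figure D1:**
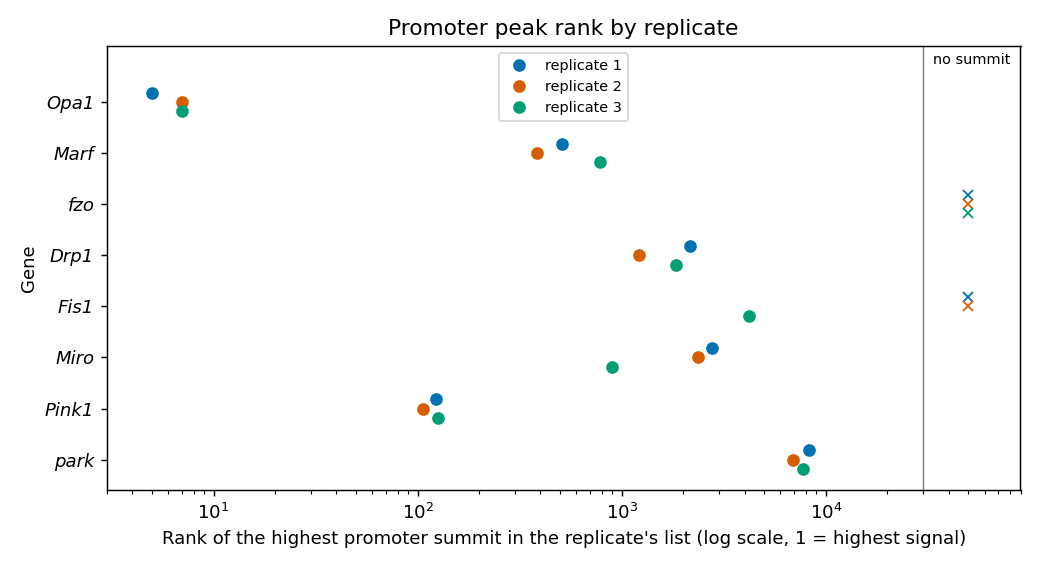
Rank of the highest summit within 500 bp of a TSS of each gene in the list of each replicate (points, log axis, 1 is the highest signal); crosses right of the line stand for a gene with no such summit among a replicate's 30000 peaks. Opa1 ranks 5 to 7 and Pink1 106 to 126, park lies between 6907 and 8255, Fis1 is present in replicate 3 alone and fzo in none.

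The 6 peaks lay at ranks 7 to 1691 of the 9194 in the reproducible list, except that of park at rank 7807. Their signal values in the pooled list, which are on the authors' scale, were 52425 at Opa1, 5207 at Pink1, 1921 at Marf, 1154 at Miro, 1073 at Drp1 and 322 at park, and the lowest signal in the IDR list was 263. The order Opa1, Pink1, Marf was the same in each replicate and park was the lowest of the 6 in each replicate. Drp1 and Miro changed places: Miro was below Drp1 in replicates 1 and 2 and above it in replicate 3, and the ratio of their signals was 1.03 ± 0.425 (SD, n = 3). The median over all 8 genes, counting those without a summit as lowest, was 1114, while the median over all protein-coding genes had no summit in the IDR list. Among the 5941 genes with an IDR promoter summit the median signal was 745. These genes were not chosen without sight of the peaks, so the medians describe them only.

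**Figure D2:**
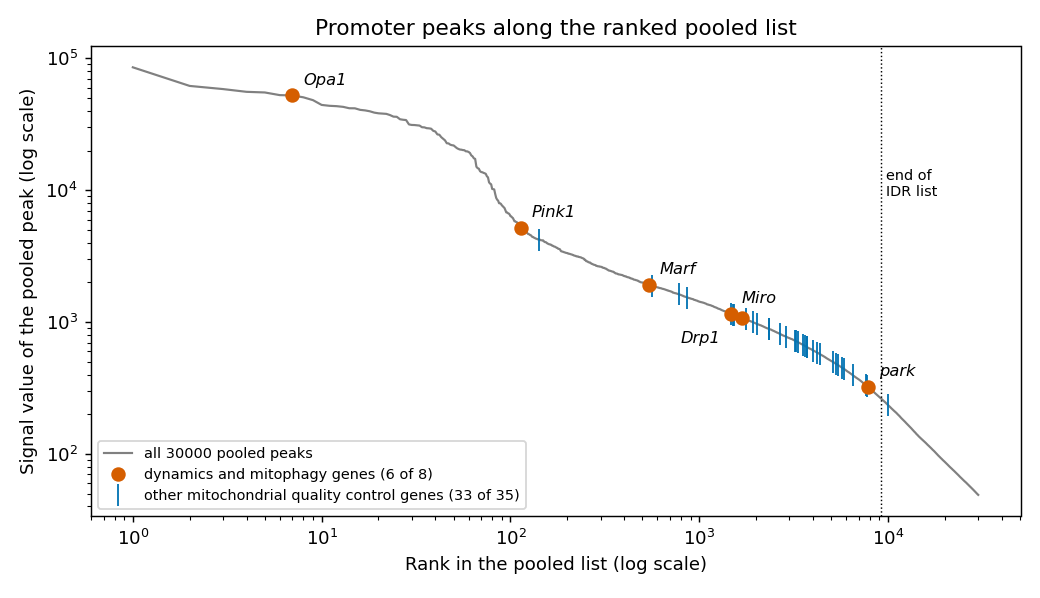
Signal value against rank for the 30000 peaks of the pooled list (grey line, both axes log), with the highest promoter peak of each dynamics or mitophagy gene (orange points) and of other mitochondrial quality control genes (blue ticks); the dotted line marks the end of the IDR list. Opa1 lies on the first plateau at rank 7, Pink1 at the foot of the steep fall at rank 113, and park at rank 7807 near the end of the IDR list.

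Opa1, the inner membrane fusion gene, carried one of the highest peaks of the experiment. The gene lies on 2R, 14230611 to 14235449 (dm6), on the minus strand, with 1 TSS. The signal at its promoter was 18588, 14758 and 19176 in replicates 1, 2 and 3, and the ranks were 5, 7 and 7. Its mean percentile over the replicate lists was 99.98 ± 0.004 (SD, n = 3). Percentiles this near 100 leave little room for spread, and the largest of its 3 ranks was 1.4 times the smallest. Within each list the Opa1 signal was 10.1 ± 0.843 times that of Pink1 and 27.3 ± 0.866 times that of Marf (SD, n = 3). The scale of the signal is not stated, so ratios of signals are not read here as fold differences in bound protein. Only 10 protein-coding genes, Opa1 included, had an IDR promoter signal as high or higher. The pooled peak spanned 14234948 to 14236195, or 1248 bp, and 0.772% of IDR peaks were at least as wide, against a median width of 383 bp.

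The Opa1 summit lay upstream of the gene in intergenic sequence, and no other gene had a TSS within 500 bp of it. It was at -166 bp from the TSS in the pooled list and at -160, -151 and -170 bp in replicates 1, 2 and 3, a span of 19 bp. An ACACTG match began 63 bp before the pooled summit on the gene's strand, at -229 bp from the TSS, and none of the other 9 sequences was found in the 250 bases before and 50 bases from the start or within 100 bp of the summit. Inside the gene the pooled list held 2 further summits, of ranks 13471 and 16601, in the 3′ untranslated region and in a coding exon; their signals were 153 and 113, below the lowest IDR peak. The second of these had the start of mir-1016, a microRNA gene within Opa1, within 500 bp.

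Marf, the outer membrane mitofusin of most tissues, had the next highest peak after those of Opa1 and Pink1. The gene lies on X, 6365949 to 6370924, on the plus strand, with 1 TSS. The signal at its promoter was 706, 528 and 693 in replicates 1, 2 and 3, at ranks 508, 386 and 784. The mean percentile was 98.1 ± 0.68 (SD, n = 3). The pooled summit lay at -79 bp from the Marf start and the replicate summits at -75, -90 and -86 bp. The same summit was at -162 bp from the start of swa, a gene needed to localize bicoid mRNA in the egg, which is transcribed in the opposite direction from a TSS 241 bp away. Which of the 2 genes the peak belongs to cannot be told apart from these lists. The match to core promoter motif 6, in capitals in the Marf stretch above, began 5 bp after the summit, and an M1BP match lay further out, at -226 bp from the TSS. Replicate 2 had a second, lower summit in the same interval, of rank 8050 in the 5′ untranslated region of Marf. Further in, an intron held a weaker summit in the pooled list at 595 bp from the start, just outside the 500 bp window (rank 10732), and in replicates 1 and 3, at ranks 12704 and 6114.

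The fzo gene, the mitofusin of the male germ line, had no promoter peak. It lies on 3R, 23201644 to 23204034, on the minus strand, with 1 TSS. No summit of any of the 5 lists lay in the gene or within 2000 bp of it. The nearest pooled summit was 8.10 kb from the TSS and ranked 3350, and the nearest summits in replicates 1, 2 and 3 were 8.10, 6.69 and 8.09 kb away. Why a site is missing from a list was not tested. The 100 bases before the fzo start held no match to any of the 10 sequences, and neither did its promoter window. The pair of mitofusin genes thus stood at 98.1 as a mean percentile for Marf and outside all 3 replicate lists for fzo.

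Drp1, the fission dynamin, had a peak close to its start. The gene lies on 2L, 2581281 to 2585430, on the minus strand, with 1 TSS. The signal was 333, 316 and 428 in replicates 1, 2 and 3, at ranks 2165, 1220 and 1846, and the mean percentile was 94.2 ± 1.6 (SD, n = 3). The pooled summit was intergenic at -34 bp from the start, with replicate summits at -48, -53 and -39 bp, and no other gene had a TSS within 500 bp of it. The CGATA match shown above began 9 bp before the summit on the gene's strand and the ACACTG match 55 bp after it, at +21 bp from the start. The GC content of the 75 bp on each side of the summit was 52.3%, above the upper quartile of 39.7% for all IDR summits, whereas at the other 5 genes it was 27.2% to 38.4%. A second IDR peak, of rank 3540, lay past the 3′ end of the gene at the starts of ND-B17.2, a subunit gene of respiratory complex I, and Arpc5, a subunit gene of the actin-nucleating Arp2/3 complex.

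Fis1, the fission gene with 2 start sites on 2R between 5603587 and 5604834, went against the other genes in that its replicates disagreed. Replicate 3 had a promoter summit with a signal of 234 at rank 4225, at -97 bp from the upstream start. Replicates 1 and 2 and the pooled and IDR lists had none within 2000 bp of the gene. In those lists the nearest summits lay 47.8 to 48.8 kb from the upstream start. Of the 3649 protein-coding genes with a promoter summit at least as high in replicate 3, 44 (1.21%) had none in the pooled list. At 29 genes, Fis1 included, replicate 3 had a summit of at least that rank while replicates 1 and 2 and the pooled list had none. Fis1 is therefore not counted as carrying a peak, and the cause of the difference between replicates was not tested.

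Miro, the transport GTPase, was the least even of the 6 genes across replicates. The gene lies on 3R, 24034362 to 24038847, on the minus strand, with 2 TSS, and its summit lay by the downstream one, at -98 bp in the pooled list, within the 5′ untranslated region of the longer transcript. The signal was 289, 225 and 648 in replicates 1, 2 and 3, at ranks 2763, 2372 and 893. Replicate 3 was thus the highest, and the mean percentile was 93.3 ± 3.29 (SD, n = 3). The largest rank was 3.09 times the smallest, against a median ratio of 1.66 over the 5704 genes with an IDR promoter summit and a promoter summit in all 3 replicates; 6.64% of those genes had a higher ratio. For Opa1, Pink1 and park the ratio was 1.4, 1.19 and 1.2, and for Marf and Drp1 it was 2.03 and 1.77.

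A second Miro summit was also in the IDR list, at rank 7148 and with a signal of 359, at -299 bp from the downstream Miro start in an intron. It lay nearer to the start of spas than the main summit did, at -186 bp against -387 bp. The spas gene encodes spastin, a microtubule-severing enzyme, and its start is 485 bp from that of Miro on the opposite strand. Each replicate had 2 promoter summits, with the one nearer to spas at ranks 13159, 6057 and 6024 in replicates 1, 2 and 3. That summit was at -305, -378 and -303 bp from the downstream Miro start in replicates 1, 2 and 3. Replicate 2 thus placed it apart from the others, at -107 bp from the start of spas. The ZIPIC match printed for Miro began at -4 bp from the downstream start and was not wholly within 100 bp of the main summit, while a CGATA match began 63 bp after that summit.

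Pink1, the kinase that starts mitophagy, had the second highest peak of the 8 genes and the most precisely placed. The gene lies on X, 6683798 to 6687302, on the plus strand, with 3 TSS. The signal was 1684, 1570 and 1943 in replicates 1, 2 and 3, at ranks 123, 106 and 126, and the mean percentile was 99.6 ± 0.036 (SD, n = 3). The pooled summit was at 15 bp from the first start, in the 5′ untranslated region, and the replicate summits at 17, 15 and 15 bp, a span of 2 bp. The pooled interval of 906 bp held a second summit, of rank 2746 and signal 798, upstream of the third start by 248 bp. Each replicate also had a second promoter summit, at ranks 393, 164 and 630, within the interval of the first. In the replicates this second summit lay 182, 178 and 176 bp after the second start, in the 5′ untranslated region. Its position differed from that of the pooled second summit. The pooled one was at 6684107, and those of replicates 1, 2 and 3 were at 6684023, 6684019 and 6684017. No other gene had a TSS within 500 bp of the highest summit.

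The sequence under the Pink1 summit held the M1BP sequence beginning 17 bp after it, which is the site printed above, and 3 CGATA matches within 100 bp, beginning 22 and 12 bp before and 61 bp after it. The M1BP sequence was in 5.23% of the 19604 promoter windows of protein-coding genes, counted per start site, in 4.87% of windows of 100 bp on each side of all IDR summits and in 26 of the windows of the 100 strongest IDR peaks. Pink1, at rank 113, was just outside those 100.

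The park gene, which encodes parkin, stood at the other end of the order. It lies on 3L, 21194754 to 21196853, on the minus strand, with 2 TSS. The signal was 117, 98.9 and 128 in replicates 1, 2 and 3, at ranks 8255, 6907 and 7765, and the mean percentile was 74.5 ± 2.27 (SD, n = 3). Within the shorter IDR list its percentile was 15.1. Replicates agreed on this low rank about as closely as they did for Pink1, with a ratio of highest to lowest rank of 1.2. The Pink1 signal was 15.2 ± 0.748 times that of park within the same lists (SD, n = 3), so the difference between the kinase gene and the ligase gene exceeded the spread between replicates. The park summit was at 27 bp from the nearer start in the pooled list and at 93, 44 and 11 bp in replicates 1, 2 and 3, a span of 82 bp, the widest of the 6 genes. It was also at -89 bp from the start of Targ3 on the opposite strand. The Targ3 start lay between the 2 park starts, 62 bp from the one nearer to the summit. ACACTG began 12 bp before and 2 bp after the pooled summit, as both matches of the park site above show.

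**Figure D3:**
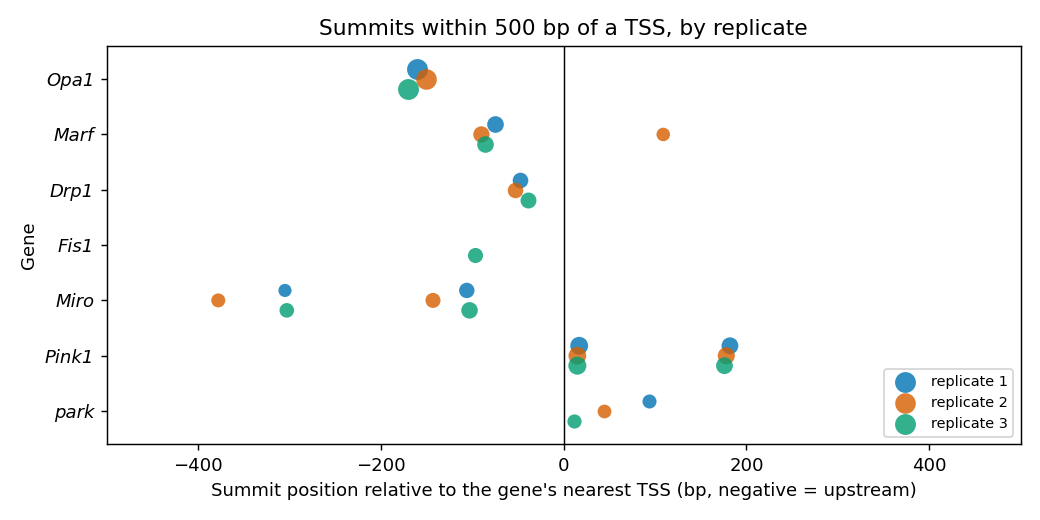
Position of every summit within 500 bp of a TSS of the gene in the 3 replicate lists, relative to the gene's nearest TSS (bp, negative is upstream); larger points have higher signal. Opa1, Marf, Drp1, Fis1 and Miro have their highest summit upstream and Pink1 and park downstream of a start, and the replicates of Pink1 coincide within 2 bp.

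The highest IDR summit lay upstream of the nearest start at 4 of the 6 genes, and over all 5941 genes with an IDR promoter summit 89.8% were upstream, with a median of -109 bp and quartiles of -191 and -44 bp. At 3 of the 6 genes, Marf, Miro and park, the peak was shared with the promoter of another protein-coding gene, in each case on the opposite strand, against 58.4% of all 5941 genes sharing theirs on either strand. Opa1, Pink1 and Drp1 stood alone.

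No single sequence was common to the 6 summits. Within 100 bp of the highest IDR summit, ACACTG was found at Opa1, Drp1 and park, CGATA at Drp1, Miro and Pink1, and 1 gene each held the M1BP sequence (Pink1), core promoter motif 6 (Marf) and the TATA box (Pink1). Core promoter motif 6 was in 4.79% of promoter windows and 4.45% of windows at all IDR summits, and TATAAA was in 37.4% of windows at all IDR summits. ACACTG was in 18.4% of all promoter windows, in 19.8% of windows of that size at all IDR summits and in 69 of the windows at the 100 strongest. It was picked at those 100, so its count there is no result. CGATA was in 45.7% of promoter windows and 35.5% of IDR windows. The sequence of DREF was in no member promoter (8% of all promoter windows), nor were those of GAF (7.61%), Zelda (1.7%) and the E-box (4.01%). The TATAAA sequence lay in the promoter windows of Fis1, Pink1 and park (42.2% of all), and ZIPIC in that of Miro (2.04%). A member counts if any of its start sites has a match, whereas the shares of promoter windows are per start site. For Pink1 the TATAAA match was at the third start only. A match to a sequence is not a measured binding site. ACACTG was present both at the highest and at the lowest of the 6 peaks, and nothing is read from this. Opa1, at rank 7 of the IDR list, was itself among the 100 peaks at which the sequence was picked.

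Other genes of mitochondrial quality control mostly carried promoter peaks too, each lower than those of Opa1 and Pink1. A list of 44 genes of mitochondrial shape, transport, damage sensing and autophagy was drawn up with results of this experiment known; 43 matched RefSeq, 1 of them by an older symbol, and 35 were not among the 8. Of these 35 genes, 32 (91.4%) had an IDR promoter summit, against 42.6% of all protein-coding genes. Since results were known when the list was drawn up, nothing is read from the difference. At 19 of the 32 the peak also lay at the promoter of another protein-coding gene, as it did at 58.4% of all genes with an IDR promoter summit. By role it was 2 of 2 fusion and fission genes, 7 of 8 genes of inner membrane shape and Opa1 processing, 3 of 3 transport genes, 11 of 11 genes of damage sensing, ubiquitin and the outer membrane, and 9 of 11 mitophagy receptor and autophagy genes. The median signal over all 35 was 673, counting those without a summit as lowest. None of the 35 had a signal above Pink1, 1 was above Marf and none of those with an IDR summit was below park.

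**Figure D4:**
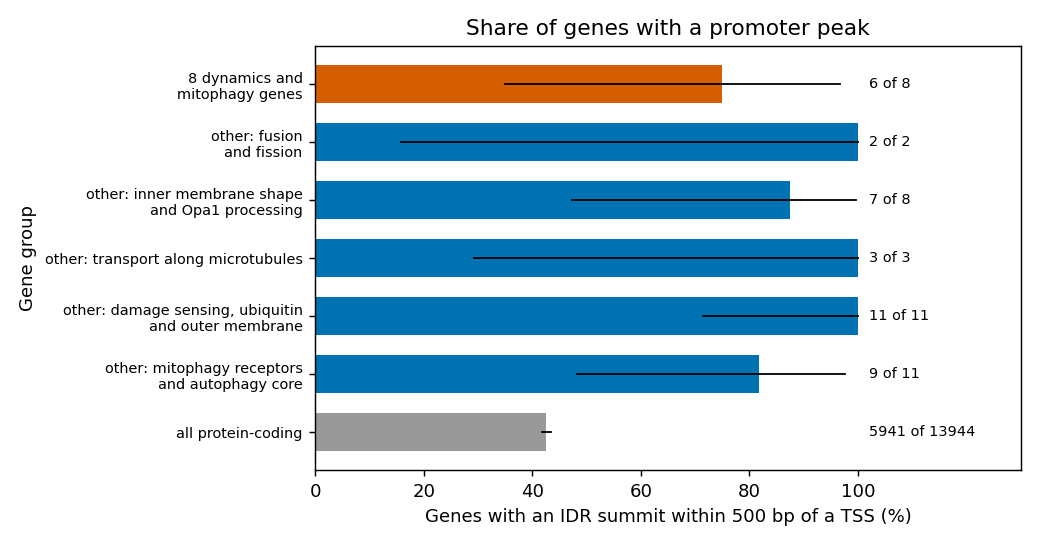
Percentage of genes whose start sites had an IDR summit no further than 500 bp away (bars from 0, with exact 95% binomial intervals as lines) for the 8 dynamics and mitophagy genes (orange), 5 role groups of other mitochondrial quality control genes (blue) and all protein-coding genes (grey). It is 6 of 8 for the first, 81.8% to 100% for the role groups and 42.6% for all genes. The 8 genes and the role groups were chosen with results known, so nothing is read from the differences. The intervals cover counting error only.

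The highest of the 35 were Tom7, a subunit gene of the outer membrane translocase (4231, ranks 176, 136 and 152 in replicates 1, 2 and 3), the autophagy initiation gene Atg17 (1887), the inner membrane rhomboid protease gene rho-7 (1621) and Atg9 (1535), which encodes a membrane protein of growing autophagosomes. Each of these 4 peaks also lay at the start of another protein-coding gene. The genes without an IDR promoter summit were Letm1, an inner membrane ion transport gene, the lipid transfer gene Vps13D and the autophagy kinase gene Atg1, the last named after its values were seen. Atg1 had a pooled summit of rank 10023, just past the end of the IDR list, and Letm1 had promoter summits in replicates 1 and 3 alone, at ranks 10502 and 10274. Mul1, an outer membrane ubiquitin ligase gene, and TER94, which encodes the segregase p97, had IDR summits of ranks 4014 and 3240 but no promoter summit in replicate 3.

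The genes whose ranks were most like those of each member were found by the sum, over the 3 replicates, of the absolute difference in log2 rank of the highest promoter summit. For Opa1 the nearest were Buffy and Roc2, both at ranks 4, 6 and 8, with a sum of 0.737, then CG34174 at 1.26. For Pink1 they were Elp4 and Vps52, both at ranks 122, 108 and 120 (0.109), then CSN6 (0.24). For Marf they were HP1c and vret (0.371 each) and CG3226 (0.421), for Drp1 CG2519 (0.114), Plc21C (0.275) and CG42488 (0.283), for Miro PIG-L and psidin (0.409 each) and Atpalpha (0.413), and for park CG6254 (0.116), Start1 (0.133) and sced (0.157). Buffy and Roc2 had the same rank as each other in every replicate, as had Elp4 and Vps52, HP1c and vret, and PIG-L and psidin. The genes of such a pair are therefore not counted as separate sites. These values order genes by rank in 3 lists and say nothing of what the genes do.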

How the data were processed

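The data were 5 peak lists in narrowPeak format with coordinates on dm6: 1 per replicate, 1 made from all 3 replicates together (pooled) and 1 thresholded on the IDR. Per the text files deposited with them, the authors called peaks in the alignments of a replicate against 1 control file, shared by all, and derived the IDR list from the other 4. The labels give a fragment size range of 200 to 800 bp. No source used here names the aligner, the peak caller or the cutoff on the IDR, and the depth in reads is unknown. Signal values are the authors' deposited ones, whose scale is not stated; across lists, ranks and percentiles were therefore used. The -log10 q value deposited by the authors was not used.

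Start sites, features and sequences came from the RefSeq annotation and genome of the same assembly. Each gene took its highest summit within 500 bp of any TSS, separately in each list. A promoter window for sequence searches ran from 250 bases before to 50 bases from a start. The members and lists were chosen with earlier results of these data known, and no test was run. Named genes were the 8 members, genes sharing their peaks, the 3 nearest in rank and the 4 highest of the wider list. Also named were the 4 genes of that list that lacked a promoter summit in a replicate list. They are not the 4 with the lowest signal. The assignment of summits to genes was checked on planted peaks. Alternatives were other windows, overlap of the interval with the TSS, the stronger 50% of IDR peaks, the pooled list and each replicate left out. Analyses used Python 3.11.15, numpy 2.4.6, pandas 2.3.3, scipy 1.17.1 and matplotlib 3.10.9.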

Additional observations from a re-analysis of the deposited data

How the results depend on the processing

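The count of 6 of 8 members with an IDR promoter summit was 6 with windows of 250 bp (37.3% of all genes) and 1000 bp (46.1%) and with the peak interval required to cover the TSS (34.7%). It was also 6 in the pooled list (55.1%) and in the lists of replicates 1 (55.4%) and 2 (55.3%) alone. It was 5 in the 50% of IDR peaks with the higher signal (29% of all genes), where park was lost, and 7 in replicate 3 alone (55%). Leaving out each replicate in turn gave 6 for the members and 28 to 32 of 35 for the wider list, whose main count was 32, against 36% to 38.4% of all genes, although every replicate had gone into the IDR list. Restricted to genes without a TSS of another protein-coding gene within 1000 bp (chosen after seeing the data), the counts were 3 of 5 members and 11 of 11 genes of the wider list, against 25.4% of all such genes; fewer genes enter there by construction. The other settings left the wider count between 24 and 35. Of 10 motif counts, 3 moved by over 1.5 times between the promoter and the summit window. These were M1BP (2 to 1), ZIPIC (1 to 0) and the TATA box (3 to 1). The promoter counts cover 8 genes and the summit counts only the 6 with an IDR summit, so the 2 are not over the same genes. No paired analysis was possible because the study has 1 group. Depth is unknown.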

Other observations

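Vps13D, which encodes a lipid transfer protein needed for the clearance of mitochondria, had promoter summits of ranks 1071 and 740 in replicates 1 and 2, with signals of 488 and 395 at -11 and -39 bp from its start. Neither replicate 3 nor the pooled list had a summit within 500 bp of that start. Those ranks were above the ranks of Drp1 and Miro in the same replicates. In all, 144 protein-coding genes had promoter summits in replicates 1 and 2 but none in replicate 3 or the pooled list, and at 2 of them the rank in replicate 1 was at least as high as at Vps13D. The cause was not tested.

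Between the replicates, 4.65%, 5.57% and 8.32% of the genes with a promoter summit in replicates 1, 2 and 3 had none in the pooled list.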
